A study of Populus yunnanensis and Populus davidiana with 24 samples.

Results

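Among 43836 gene models listed for poplar cutting stems, 33 were nearly silent in Populus yunnanensis at 0 h and clearly present at 120 h. These genes were chosen by their measured values, with less than 0.5 FPKM in each of the 3 libraries of P. yunnanensis at 0 h and at least 5 FPKM in each of the 3 at 120 h. FPKM is a fragment count scaled to gene length and to the mapped fragments of a library. This scaling does not make libraries fully comparable. The median ratio of a library's genes to their mean over libraries ran from 0.74 to 1.31. The lowest was P. yunnanensis 0 h replicate 2 and the highest P. yunnanensis 96 h replicate 3. Of all gene models, 18744 met the first condition and 13768 met the second. The level of the 33 genes at 0 and 120 h in P. yunnanensis was therefore fixed by the choice and is given as a description. The 18 libraries that the choice did not use, from P. yunnanensis at 48 and 96 h and from P. davidiana at 0, 48, 96 and 120 h, carry the tests.

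The material was stems of 15-cm cuttings made from annual branches, with the buds and leaves taken off. All groups were labelled as cut stems at the growth stage. Each of the 8 groups, P. yunnanensis and P. davidiana at 0, 48, 96 and 120 h, held 3 libraries, 24 in all. The labels do not say from which event the hours run, how old the source trees were or whether replicates came from separate plants. If they did not, the p-values measure a spread that may be technical.

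A stem cutting has lost its leaves, buds and roots and has an open wound at each end. Cells in and near the cambium, the dividing layer between wood and bark, can re-enter division, close the wound and form the founder cells of adventitious roots. Auxin is the hormone best known for starting this. The series title names rooting and WOX genes, a family of homeobox regulators whose members act in stem cell niches and, in Arabidopsis, in the founding of new roots. P. davidiana is an aspen, a group known for stem cuttings that root poorly.

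The table lists gene models by identifier alone, and no table used here pairs identifiers with names or sequences. The 33 genes are therefore given by identifier with no role. The label "stem" could not be checked against marker genes, and the gene lists prepared for hormone, cell wall and transcription factor families could not be matched. All 33 are annotated Potri models placed on a numbered chromosome, and none is one of the 886 assembled MSTRG loci.

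Read totals are not known for any library. From the ratio of low FPKM values, the relative depth of mapped fragments was 0.829 to 1.10 in P. yunnanensis and 0.620 to 0.835 in P. davidiana, with P. yunnanensis 96 h replicate 1 set to 1. Between 19019 and 22450 gene models reached 1 FPKM in a P. yunnanensis library and between 17700 and 19887 did in a P. davidiana library. Of the 24643 genes tested, which reached 1 FPKM in 3 or more libraries, 3.98% to 5.63% were below 0.5 FPKM in all libraries of a P. yunnanensis group, and 11.1% to 12.9% were in a P. davidiana group. The part of depth and of alignment to the reference in the species differences below was not tested.

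**Figure D1:**
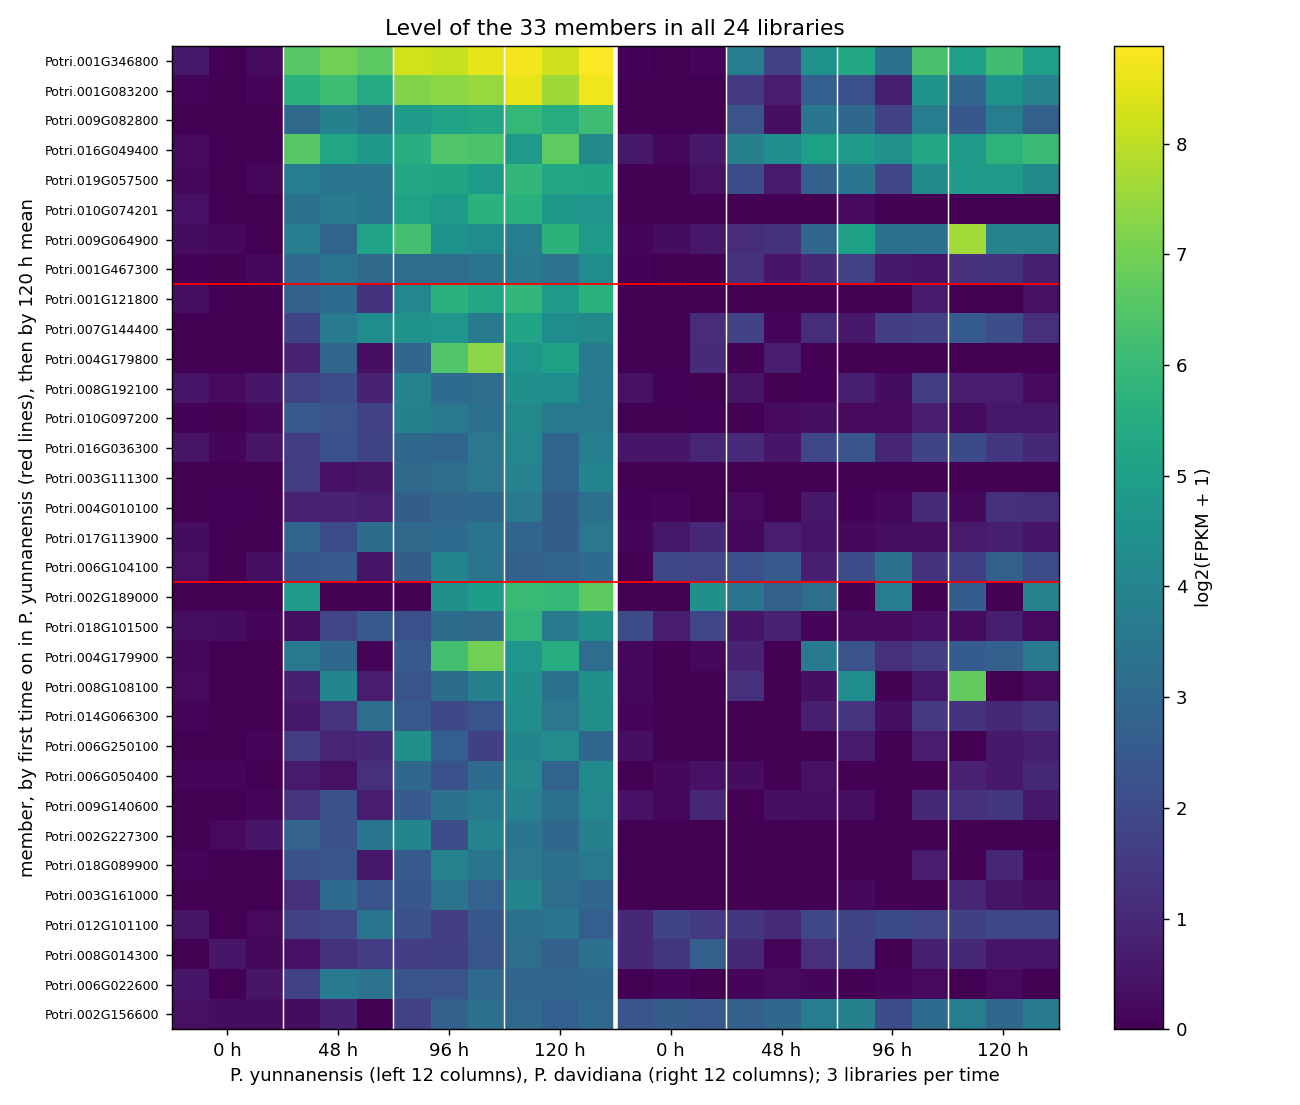
Level of the 33 genes as log2(FPKM + 1) (colour) in each of the 24 libraries (columns, 3 per species and time). Rows are grouped by the first time at which all 3 P. yunnanensis libraries reached 5 FPKM (48, 96 and 120 h, separated by red lines) and ordered by the 120 h mean. P. yunnanensis columns brighten from 48 h on, while most rows stay dark in P. davidiana.

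Single libraries weighed on who was chosen. At the 0 h bound, Potri.001G346800.v3.1 was just inside with a highest value of 0.484 FPKM, followed by Potri.008G192100.v3.1 with 0.455. Just outside were Potri.007G099800.v3.1 with 0.519 and Potri.010G066500.v3.1 with 0.524. At the 120 h bound, Potri.017G113900.v3.1 with a lowest value of 5.08 FPKM and Potri.004G010100.v3.1 with 5.16 were just inside. Potri.014G037700.v3.1 with 4.81 and Potri.009G055900.v3.1 with 4.69 were just outside. Without P. yunnanensis 0 h replicate 3 the same bounds would choose 70 genes, and without 120 h replicate 2 they would choose 51. After scaling every library by the median ratio of its genes they would choose 25, all of them among the 33.

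At 120 h the 33 genes had group means from 6.49 to 397 FPKM in P. yunnanensis, with a median of 13.9. Most were modest in level, with 20 of the 33 under 20 FPKM and 2 above 100. At 0 h their means lay between 0 and 0.352 FPKM, and 5 of them were listed at 0 in all 3 libraries.

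By the bound of 5 FPKM the rise was spread over the time course. At 48 h, 8 of the 33 genes had reached 5 FPKM in all 3 P. yunnanensis libraries, and at 96 h 18 had. No gene was still below 0.5 FPKM in all 3 libraries at either time. The timing depended on the bound. At 1 FPKM, 17 of the 33 had reached it in all 3 libraries at 48 h and 32 at 96 h, and the share of all genes was not counted. After median ratio scaling 8, 16 and 27 of the 33 met 5 FPKM at 48, 96 and 120 h. The median of the group means went from 0.0683 FPKM at 0 h to 4.86 at 48 h, 9.65 at 96 h and 13.9 at 120 h. Over the whole table, 27.5% of gene models were at 5 FPKM or more in all 3 libraries at 48 h and 31.3% at 96 h. Among tested genes 49.0% and 55.7% were. All 3 libraries at 48 h lay above all 3 at 0 h in 29 of the 33 genes. This was so for 14.0% of the tested genes, and nothing is read from the comparison, since low 0 h values chose the genes.

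**Figure D2:**
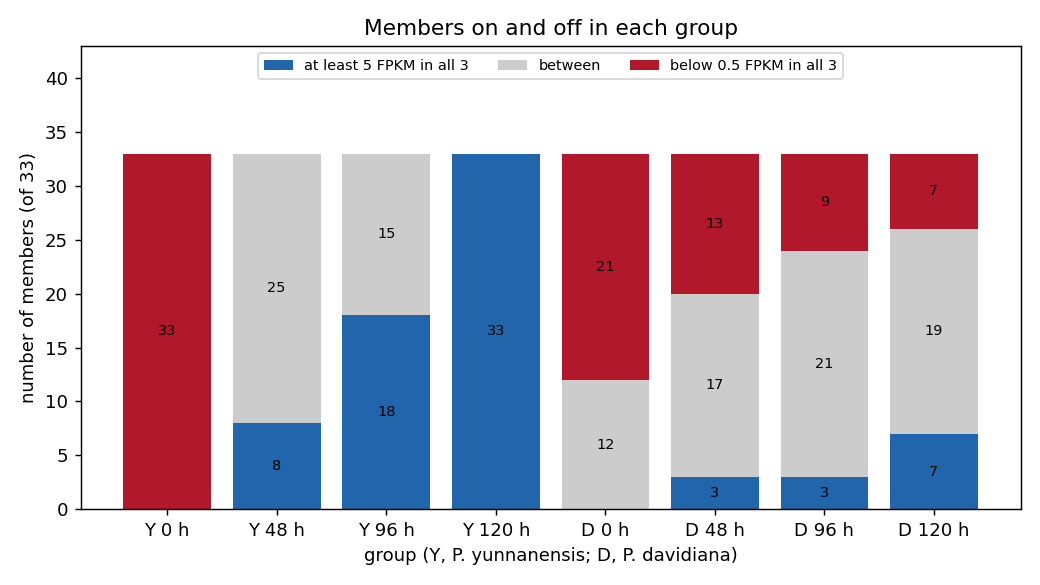
Number of the 33 genes (vertical axis) at 5 FPKM or more in all 3 libraries (blue), below 0.5 FPKM in all 3 (red) or between these bounds (grey) in each group (Y, P. yunnanensis; D, P. davidiana). The Y 0 h and Y 120 h bars are fixed by the choice. In between, 8 and then 18 genes are blue in P. yunnanensis, against 3 and 3 in P. davidiana.

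The 8 genes that had already reached 5 FPKM at 48 h included the most abundant of all. Potri.001G346800.v3.1 was at 0.484, 0 and 0.202 FPKM at 0 h, 94.1, 125 and 99.8 at 48 h, 310.4, 279.7 and 376 at 96 h and 421, 300.2 and 471 at 120 h. Potri.001G083200.v3.1 was at 0.083, 0 and 0.081 FPKM at 0 h, 50.0, 69.3 and 42.3 at 48 h, 145, 166 and 179.6 at 96 h and 373, 196 and 416 at 120 h. In both genes the libraries of 0, 48 and 96 h did not overlap, and in neither was any 48 h library below 42.3 FPKM.

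Potri.016G049400.v3.1 took another course. It stood at 0.205, 0 and 0 FPKM at 0 h and then at 94.4, 37.8 and 25.6 at 48 h, 48.0, 87.2 and 80.8 at 96 h and 26.7, 104 and 17.3 at 120 h. Its libraries at 48, 96 and 120 h overlapped, so no order of these times can be given. Potri.009G064900.v3.1 was as uneven, at 12.3, 6.10 and 34.8 FPKM at 48 h, 76.1, 22.1 and 19.1 at 96 h and 12.1, 51.6 and 28.4 at 120 h.

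The other early genes had lower means than these at 48 h. Potri.019G057500.v3.1 was at 12.1, 9.78 and 10.03 FPKM at 48 h and at 40.5, 36.5 and 27.3 at 96 h. Potri.009G082800.v3.1, with values of 0 throughout the 0 h libraries, was at 7.36, 13.9 and 10.3 FPKM at 48 h and at 29.0, 33.3 and 39.6 at 96 h. Potri.010G074201.v3.1 was at 8.91, 11.7 and 9.82 FPKM at 48 h and at 33.3, 27.3 and 50.4 at 96 h. In all 3 genes every 96 h library lay above every 48 h library. Potri.001G467300.v3.1 showed no such step, at 7.18, 10.01 and 7.35 FPKM at 48 h and 7.97, 8.004 and 9.80 at 96 h.

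Another 10 genes first reached 5 FPKM in all libraries at 96 h. Potri.001G121800.v3.1 was at 5.56, 7.57 and 1.45 FPKM at 48 h and at 16.8, 49.8 and 39.5 at 96 h. Potri.003G111300.v3.1 had values of 0 throughout the 0 h libraries and stood at 1.90, 0.367 and 0.385 FPKM at 48 h, then at 7.48, 8.12 and 10.6 at 96 h. Potri.004G010100.v3.1 was at 0.843, 0.814 and 0.627 FPKM at 48 h and at 5.14, 6.63 and 6.73 at 96 h. Each of these genes was separated between 48 and 96 h. Over the 10 genes the group means ran from 0.761 to 11.03 FPKM at 48 h and from 6.17 to 84.7 at 96 h.

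The last 15 genes met 5 FPKM in all libraries only at 120 h, for unlike reasons. In Potri.006G050400.v3.1 the level went from 0.549, 0.323 and 1.27 FPKM at 48 h to 7.10, 3.74 and 7.57 at 96 h and 17.2, 6.07 and 17.8 at 120 h, with a single 96 h library under the bound. Potri.018G101500.v3.1 was at 0.289, 2.61 and 4.70 FPKM at 48 h and at 3.46, 7.87 and 7.44 at 96 h. Again a single 96 h library was under the bound. At 120 h it stood at 54.8, 11.98 and 20.03 FPKM. Potri.002G189000.v3.1 jumped between extremes, with 28.7, 0.001 and 0 FPKM at 48 h, 0, 20.8 and 30.1 at 96 h and 62.2, 60.5 and 100.3 at 120 h. Replicates of this gene disagreed in both species, and an exact 0 in an FPKM table can be a failed estimate, so its course is not resolved here.

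The comparison of 96 with 48 h asked which of the 33 genes went on rising in P. yunnanensis. Its libraries were not used by the choice, but genes low at 0 h and high at 120 h have to rise in between. More rises than among all tested genes therefore follow in part from the choice, and nothing is read from that excess. Between 48 and 96 h, 10 of the 33 genes rose and 0 fell at an adjusted p under 0.05 in limma. The fit took all 24643 tested genes. Among all tested genes 0.775% rose and 0.0852% fell. The median log2 change on the log2(FPKM + 1) scale was 1.56 over the 33 genes and 0.22 over all tested genes. The means were higher at 96 h in 31 of the 33, and all 96 h libraries lay above all 48 h libraries in 18, against 13.8% of the tested genes. None lay wholly below. At an unadjusted p under 0.05, 20 of the 33 were higher and 0 lower in limma. For the 31 and the 20, the share of all tested genes was not counted.

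The highest called rise was that of Potri.004G179800.v3.1, from 0.860, 6.68 and 0.274 FPKM at 48 h to 6.55, 87.5 and 160.1 at 96 h, where the lowest 96 h library fell just short of the highest at 48 h. Its log2 change was 4.18 (SE 0.82, adjusted p = 0.0228 in limma). This call ended without 48 h replicate 1 or 3 or 96 h replicate 2 or 3, with adjusted p of 0.0871 to 0.119 in limma, and under 2 other settings of 13 tried. Potri.001G121800.v3.1, whose libraries did not overlap, changed by 2.68 (SE 0.41, adjusted p = 0.00427 in limma). The smallest adjusted p among the 33 was that of Potri.003G111300.v3.1, whose log2 change was 2.45 (SE 0.24, adjusted p = 0.000133 in limma). The SE pooled the spread of all 18 libraries, and this gene was at 0 in all 12 P. davidiana libraries, which added no spread. With the 6 libraries at 48 and 96 h alone its adjusted p was 0.27 in limma. The most abundant pair, Potri.001G346800.v3.1 and Potri.001G083200.v3.1, did not pass, with log2 changes of 1.59 (SE 0.65, adjusted p = 0.29 in limma) and 1.61 (SE 0.69, adjusted p = 0.31 in limma). In both, every P. yunnanensis library at 96 h lay above every one at 48 h. Their SE also held the spread in P. davidiana, where they stood at 12.7, 2.26 and 22.2 FPKM and at 1.82, 0.592 and 5.36 at 48 h. The missing calls therefore do not rank these rises below the called ones.

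These calls depended on which libraries were fitted. With the 6 libraries at 48 and 96 h alone, limma called 0 of the 33, with 17 at an unadjusted p under 0.05, and 0 of all tested genes. The adjusted p of the 10 genes then ran from 0.23 to 0.48. A pseudocount of 0.1 left 2 calls, and without 48 h replicate 3 there were 5. With replicate number as a block 9 were left, as Potri.009G140600.v3.1 had an adjusted p of 0.0593 in limma. Replicate 1 at 96 h held the lowest value of its group in 19 of the 33 genes and in 47.1% of all tested genes, and replicate 3 the highest in 19 and in 56.9%.

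No test of the step from 96 to 120 h was made, since the 120 h values chose the genes. The mean was highest at 120 h in 24 of the 33 genes, at 96 h in 8 and at 48 h in 1. All 120 h libraries lay above all 96 h libraries in 7 of the 33, where 4.11% of tested genes did, and nothing is read from this. Potri.006G022600.v3.1 had its highest mean at 48 h, with 2.27, 11.9 and 9.32 FPKM against 6.37, 6.70 and 6.75 at 120 h, and these libraries overlapped.

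A single pair of the 33 genes, Potri.004G179800.v3.1 and Potri.004G179900.v3.1, held neighbouring identifiers, on chromosome 4. Their P. yunnanensis libraries stood in the same order at 96 and at 120 h but not at 48 h. At 96 h the first stood at 6.55, 87.5 and 160.1 FPKM and the second at 4.53, 76.2 and 126. At 120 h they stood at 24.5, 32.8 and 11.4 FPKM and at 23.6, 43.9 and 8.06. In P. davidiana they parted, since at 120 h every library of the first was at 0 and the second was at 5.05, 5.61 and 11.4 FPKM. Where neighbouring genes are near-identical copies, fragments can be split between them, and whether this pair is such a case was not tested. The 33 genes lay on 15 of the 19 chromosomes, with at most 4 on any one.

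In P. davidiana the 33 genes were mostly low. At 0 h 21 of them were below 0.5 FPKM in all 3 libraries. At 48, 96 and 120 h 13, 9 and 7 were, of which 12, 6 and 6 had also been so at 0 h. Among all gene models, 48.9% were below this bound at 0 h and 47.6% at 120 h, and among tested genes 12.9% and 11.1%. Those at 5 FPKM or more in all 3 libraries numbered 0 at 0 h, 3 at 48 h, 3 at 96 h and 7 at 120 h. Among all gene models, 26.1%, 25.7%, 26.9% and 28.2% were, and among tested genes 46.5%, 45.7%, 47.9% and 50.1%. The share of the 33 at 120 h, 21.2%, was near that of all models and below that of tested genes. All models include 10268 listed at 0 in every library. The median of the group means was 0.0957 FPKM at 0 h and 1.18 at 120 h, where it was 13.9 in P. yunnanensis. In 21 of the 33 genes no P. davidiana library reached 5 FPKM, and in 10 none reached 1 FPKM. In stems, fewer cells that express a gene and less RNA per cell cannot be told apart.

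Against 0 h, 2 of the 33 genes rose in P. davidiana at 48 h, 6 at 96 h and 7 at 120 h at an adjusted p under 0.05 in limma. Among all tested genes 2.95%, 10.1% and 14.1% rose at these times. Of the 33, none fell at any time in limma with the 18 libraries, where 2.62%, 7.42% and 8.29% of tested genes fell. At an unadjusted p under 0.05, 1, 1 and 2 of the 33 were lower at 48, 96 and 120 h. The 3 comparisons share the 0 h libraries. The share of rises among the 33 was 21.2% at 120 h, and all 120 h libraries lay above all 0 h libraries in 16 of the 33, against 24.8% of tested genes. The median log2 change at 120 h was 0.61 over the 33 and 0.08 over all tested genes.

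Which genes rose in P. davidiana depended on the setting. Of the 7 called at 120 h, all belonged to the 8 that had reached 5 FPKM at 48 h in P. yunnanensis, and the exception among the 8 was Potri.010G074201.v3.1. With a pseudocount of 0.1, however, 7 of 14 rises were in genes that reached 5 FPKM later, and with the 12 P. davidiana libraries alone 5 of 12 were. A difference between early and late genes was not tested. Potri.001G346800.v3.1 was at 0.072, 0 and 0.085 FPKM at 0 h, 12.7, 2.26 and 22.2 at 48 h, 40.5, 9.05 and 79.0 at 96 h and 31.2, 70.8 and 31.7 at 120 h. From 48 h on, every one of its libraries lay above those of 0 h. Its log2 changes were 3.27 at 48 h (SE 0.65, adjusted p = 0.00816), 4.94 at 96 h (SE 0.65, adjusted p = 0.000131) and 5.33 at 120 h (SE 0.65, adjusted p = 4.62e-05), by limma.

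Potri.016G049400.v3.1 rose at the same 3 times. In P. davidiana it was at 0.534, 0.143 and 0.507 FPKM at 0 h, 13.7, 19.3 and 32.3 at 48 h, 28.8, 21.4 and 38.2 at 96 h and 27.5, 51.9 and 67.7 at 120 h. It rose by 3.96 at 48 h (SE 0.43, adjusted p = 0.000115), 4.42 at 96 h (SE 0.43, adjusted p = 1.2e-05) and 5.09 at 120 h (SE 0.43, adjusted p = 2.99e-06) on the log2 scale, by limma. At 120 h its libraries overlapped those of P. yunnanensis.

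The rises at 48 h were the least secure. With the 6 libraries of 0 and 48 h alone limma called 0 of the 33, with 7 at an unadjusted p under 0.05, and the adjusted p was 0.154 for Potri.001G346800.v3.1 and 0.0615 for Potri.016G049400.v3.1. Without 48 h replicate 2, 4 were called. At 120 h the 6 compared libraries alone gave 11 rises. The 12 P. davidiana libraries alone gave 12 rises and 1 fall, that of Potri.018G101500.v3.1 (adjusted p = 0.0439 in limma). In P. davidiana this gene was at 3.09, 0.593 and 2.73 FPKM at 0 h, 0.202, 0.188 and 0.357 at 96 h and 0.2, 0.695 and 0.202 at 120 h. With these 12 libraries its fall was also called at 96 h (adjusted p = 0.0375 in limma). Without 0 h replicate 2 it was called at 96 and 120 h (adjusted p = 0.0334 and 0.0378 in limma).

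The same bounds applied to P. davidiana, below 0.5 FPKM at 0 h and at least 5 FPKM at 120 h, chose 63 genes, and 5 of these were among the 33. They made up 15.2% of the 33 and 7.94% of the 63. These 5 were Potri.001G083200.v3.1, Potri.001G346800.v3.1, Potri.004G179900.v3.1, Potri.009G064900.v3.1 and Potri.019G057500.v3.1. In P. davidiana at 120 h the highest of them by mean was Potri.009G064900.v3.1, at 198, 14.7 and 14.7 FPKM, where a single library set the mean. Potri.019G057500.v3.1 was even, at 29.3, 28.7 and 17.9 FPKM, and Potri.001G083200.v3.1 was at 6.71, 22.4 and 14.2. Replicate 1 of P. davidiana at 120 h stood out once more in Potri.008G108100.v3.1, at 106 FPKM against 0 and 0.156 in the other libraries. In this gene replicate 1 was also the highest P. davidiana library at 0, 48 and 96 h, at 0.136, 1.29 and 18.8 FPKM.

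**Figure D3:**
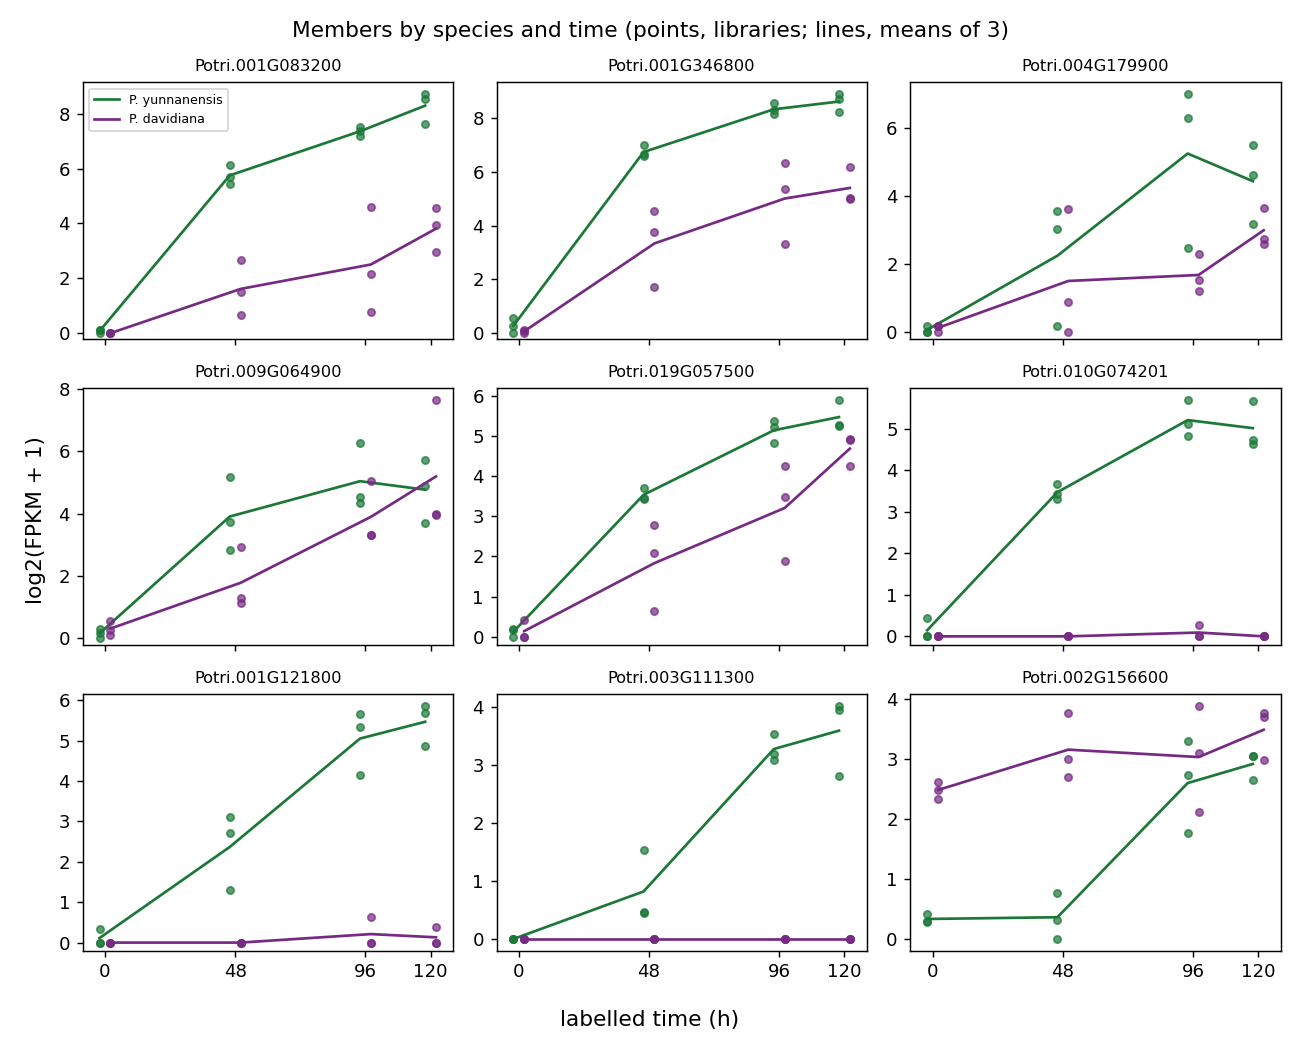
Level as log2(FPKM + 1) against the labelled time in hours for 9 of the 33 genes (points, libraries; lines, means of 3; green, P. yunnanensis; purple, P. davidiana). The first 5 panels are the genes that met the bounds in both species. The next 3 stay near 0 in P. davidiana, and in the last, Potri.002G156600, the P. davidiana libraries are at 4.04 to 5.13 FPKM at 0 h already.

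At the other end, 2 of the 33 genes were listed at 0 in all 12 P. davidiana libraries, Potri.003G111300.v3.1 and Potri.002G227300.v3.1. In P. yunnanensis at 120 h they stood at 14.3, 6.03 and 15.1 FPKM and at 10.3, 6.86 and 13.5. Potri.010G074201.v3.1 came next, with 0.211 FPKM in a single 96 h library and 0 in the other 11, against 23.9 to 49.4 FPKM in P. yunnanensis at 120 h. In all, 4 of the 33 stayed below 0.5 FPKM throughout P. davidiana. No fold is given against a group listed at 0.

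A few of the 33 were already present in P. davidiana at 0 h, when all of them were low in P. yunnanensis. Potri.002G156600.v3.1 stood at 4.04, 5.13 and 4.61 FPKM in P. davidiana at 0 h and at 12.6, 6.90 and 12.01 at 120 h. In P. yunnanensis it was at 0.236, 0.701 and 0 FPKM at 48 h, 2.38, 5.67 and 8.80 at 96 h and 7.30, 5.25 and 7.25 at 120 h. It was thus higher in P. davidiana at 48 h with no overlap, while at 96 and 120 h the species overlapped. Potri.008G014300.v3.1 went the other way in level, at 1.02, 1.68 and 5.51 FPKM in P. davidiana at 0 h and 1.05, 0.419 and 0.425 at 120 h, with a log2 change that did not pass (adjusted p = 0.139 in limma). The highest 0 h mean in P. davidiana, 6.92 FPKM, was that of Potri.002G189000.v3.1 and came from 1 library at 20.8 and 2 at 0.

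The species were compared at 48 and at 96 h, times at which no library had entered the choice. The choice still asked for a high P. yunnanensis level at 120 h and set no condition on P. davidiana. Lower levels in P. davidiana at nearby times thus follow in part from the choice. Nothing is read from the excess over all tested genes. At 48 h 18 of the 33 genes were lower in P. davidiana and 1 was higher at an adjusted p under 0.05 in limma, where 27.1% and 18.4% of tested genes were. At 96 h 26 were lower and 0 higher in limma, where 34.3% and 15.0% of tested genes were, and at an unadjusted p under 0.05 27 were lower and 0 higher. The median log2 difference, P. davidiana minus P. yunnanensis, was -1.37 at 48 h and -2.50 at 96 h over the 33, and -0.15 and -0.34 over all tested genes. All P. yunnanensis libraries lay above all those of P. davidiana in 19 of the 33 at 48 h and in 26 at 96 h, against 28.3% and 39.9% of tested genes. At 120 h this held for 28 of the 33 and 37.9% of tested genes, a time at which the choice fixed the P. yunnanensis level.

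At 48 h the deepest difference among genes of at least 5 FPKM was in Potri.001G083200.v3.1, at 1.82, 0.592 and 5.36 FPKM in P. davidiana and 42.3 to 69.3 in P. yunnanensis. The log2 difference was -4.14 (SE 0.69, adjusted p = 0.000149 in limma). Potri.010G074201.v3.1, listed at 0 in P. davidiana at 48 h, followed (adjusted p = 5.26e-09 in limma). The single gene higher in P. davidiana was Potri.002G156600.v3.1, by 2.80 (SE 0.45, adjusted p = 9.74e-05 in limma).

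At 96 h Potri.004G179800.v3.1, whose P. yunnanensis values are given above, was listed at 0 in P. davidiana (adjusted p = 4.2e-05 in limma). Potri.010G074201.v3.1 was at 0.211, 0 and 0 FPKM against 33.3, 27.3 and 50.4, which on the log2 scale was -5.11 (SE 0.23, adjusted p = 8.06e-11 in limma). Potri.001G346800.v3.1 differed although it rose in both species, with 9.05 to 79.0 FPKM in P. davidiana and 279.7 to 376 in P. yunnanensis, or -3.32 in log2 terms (SE 0.65, adjusted p = 0.000583 in limma). Among the 7 genes with no call at 96 h were Potri.009G064900.v3.1 and Potri.002G156600.v3.1, whose libraries overlapped. Under quantile normalization the latter was called higher in P. davidiana (adjusted p = 0.0367 in limma).

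**Figure D4:**
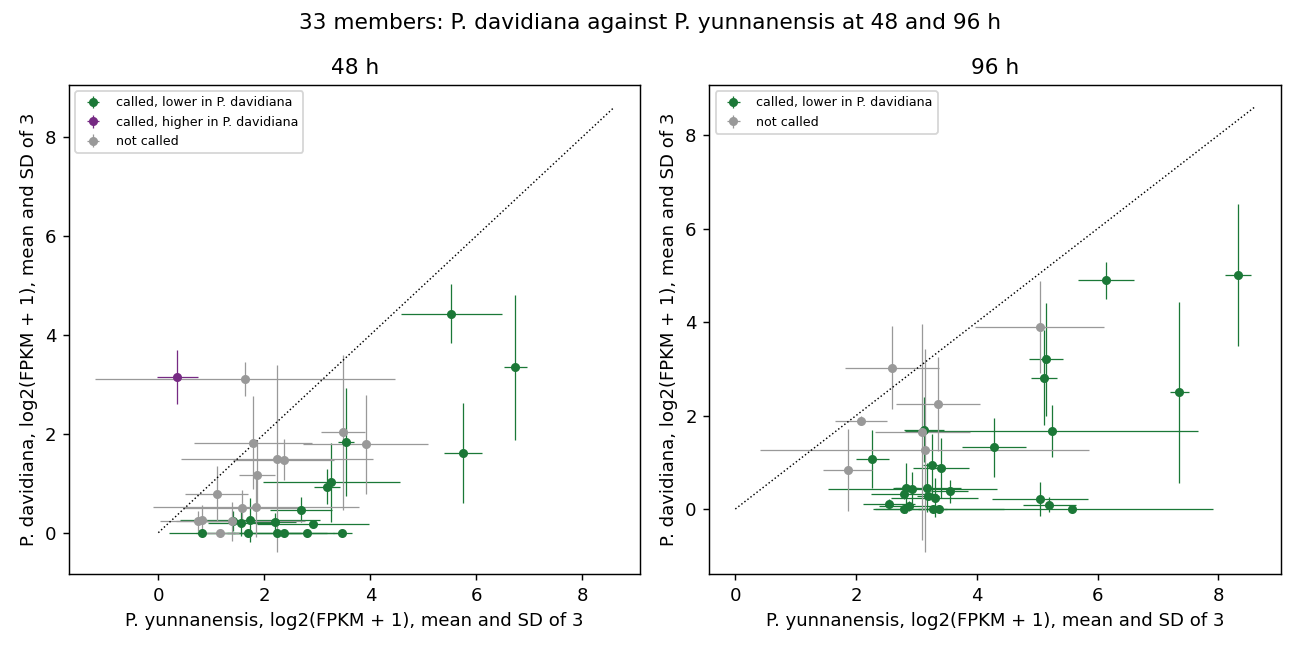
P. davidiana against P. yunnanensis at 48 h (left) and 96 h (right) for the 33 genes, as the mean and SD of log2(FPKM + 1) over 3 libraries on each axis. The dotted line marks equal levels. Green genes were called lower in P. davidiana (18 at 48 h, 26 at 96 h), the purple gene higher (1 at 48 h), and grey genes were not called.

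Whether the change from 48 to 96 h differed between the species was tested by subtracting the change in P. yunnanensis from that in P. davidiana. In limma 2 of the 33 genes were called, both towards P. yunnanensis, where 0.110% of tested genes differed in that direction and 0.0203% in the other. For Potri.003G111300.v3.1 the log2 difference was -2.45 (SE 0.34 and adjusted p = 0.0119 in limma). This gene was at 0 in P. davidiana throughout, so the value is its P. yunnanensis change with the sign turned and adds nothing on P. davidiana. Potri.006G050400.v3.1 went from 0.236, 0 and 0.316 FPKM to 0 in all 3 libraries in P. davidiana, and its difference was -2.28 (SE 0.36, adjusted p = 0.0206 in limma). At an unadjusted p under 0.05 in limma, 12 of the 33 differed in this direction and 0 in the other. The share of all tested genes at this threshold was not counted. The choice in part favours this direction, since it asked for a rise in P. yunnanensis alone. The 12 included genes near 0 in P. davidiana, such as Potri.001G121800.v3.1, with means of 0 FPKM at 48 h and 0.183 at 96 h. They also included Potri.002G156600.v3.1, with 8.35 and 8.19 FPKM there. For the 31 genes without a call, a difference between the species in this step was not shown. Both calls ended when only the 4 compared groups, or all 24 libraries, were fitted (adjusted p = 0.0937 and 0.11, and 0.075 and 0.108).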

How the data were processed

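The deposited table gives FPKM values per gene model in each library, as its column headers state. No source used here names the aligner, counter or genome build. The Potri identifiers carry the version suffix v3.1. The members and lists were chosen with earlier results of these data known.

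Groups and replicate numbers came from the sample titles, and each column matched 1 library. The test took the 24643 genes that reached 1 FPKM in 3 or more of the 24 libraries, all 33 members among them. Every member met this filter by the choice itself, through the 3 P. yunnanensis libraries at 120 h. Members at or near 0 in P. davidiana thus entered the tests through their P. yunnanensis level alone. It was run with limma 3.58.1 (R 4.3.3) on log2 values after a pseudocount of 1 was added. A log2 change on this scale understates the change of low genes. The fit held 1 mean for each of the 6 groups that the choice did not use (18 libraries, 12 residual degrees of freedom, variance trend, no replicate block). Each gene had 1 spread, pooled over both species. For genes near 0 in P. davidiana this can understate the spread in P. yunnanensis. For genes uneven in P. davidiana it can overstate it. Benjamini-Hochberg adjustment ran over all tested genes within each of 7 comparisons, and an adjusted p under 0.05 was called. Counts at an unadjusted p under 0.05 were made over the 33 genes only, so no share of all tested genes stands beside them. The fit was tested on simulated data.

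Genes named in the text are the 6 highest in P. yunnanensis at 48 and 96 h, up to 2 called rises and 2 called falls of at least 5 FPKM per comparison, the 3 highest in P. davidiana at 0 h, those listed at 0 throughout P. davidiana and those next to each bound. Others were named after their values were seen. Replicate numbers are shared between groups. Deviations from the group means of same-numbered libraries were correlated above 0.1 for all 3 numbers in P. yunnanensis at 96 and 48 h (0.32, 0.175 and 0.171) and in P. davidiana at 48 and 0 h (0.297, 0.287 and 0.256), and in neither case do the labels say what a number marks. Relative depth was the most frequent ratio of values of 0.03 to 0.3 FPKM between libraries. No 2 libraries were identical. Python 3.11.15, numpy 2.4.6, pandas 2.3.3 and matplotlib 3.10.9 were used.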

Additional observations from a re-analysis of the deposited data

Results flagged for a closer look

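In limma's test of the difference between the species in the change from 48 to 96 h, 2 of the 33 genes were called. The difference was -2.45 on the log2 scale in Potri.003G111300.v3.1 and -2.28 in Potri.006G050400.v3.1, with the change in P. yunnanensis subtracted from that in P. davidiana. Potri.003G111300.v3.1 was at 0 in all 12 P. davidiana libraries, so its value restates the P. yunnanensis change, and Potri.006G050400.v3.1 had values of 0 at 96 h in every P. davidiana library. Their adjusted p ranged over the alternatives from 3.28e-05 to 0.102 and from 0.00784 to 0.123. The calls ended with a pseudocount of 0.1, quantile normalization, all 24 libraries, or the compared groups alone. That of Potri.006G050400.v3.1 also ended without P. davidiana 48 h replicate 1 or 3, or any 1 of the 96 h replicates (adjusted p = 0.0581 to 0.0734).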

How the results depend on the processing

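Of 15 named changes under 213 alternative values, 189 kept their direction and call, 24 kept the direction only and 0 reversed. The number of the 33 genes called from 48 to 96 h in P. yunnanensis was 10, 2 with a pseudocount of 0.1, 0 with the compared groups alone, and 5 to 12 without 1 library. In P. davidiana at 48 h it was 2, 6 with that pseudocount, 5 with quantile normalization, 0 with the compared groups alone, 1 with the 12 P. davidiana libraries alone (added after seeing the data), and 2 to 4 without 1 library. At 120 h it was 7, and 14, 11 and 13 with that pseudocount, the compared groups and the 12 libraries. The species difference in change was called in 2 genes, 0 with that pseudocount, quantile normalization, all 24 libraries or the compared groups, and 1 to 5 without 1 library. The counts at 96 h in P. davidiana and between the species at 48 and 96 h stayed within 1.5 times under every setting run. With a replicate block the 7 counts were 9, 2, 6, 9, 20, 26 and 2. Median ratio scaling moved the median change of all genes from 48 to 96 h in P. yunnanensis from 0.22 to 0.01 and left 7 calls. The choice itself gave 33 to 70 genes without 1 library (added after seeing the data). In all these cases the cause was not tested. Depth is known only in relative terms, so no counting error is given for values near 0.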
